A study of Mus musculus with 8 samples.

Results

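The IFIT genes of the mouse, Ifit1, Ifit2, Ifit3, Ifit3b and Ifit1bl1, were followed through single-cell RNA sequencing of sorted myeloid cells from tumors and blood. They were chosen by their UMI counts in these libraries, with earlier results of the data known, and are 5 of the 32285 genes in the deposited matrices. Their values below are therefore a description. MC38 is a mouse colon carcinoma line that was grown under the skin of the flank. Cells positive for CD45 and CD11b and high for Ly6C, as monocytic myeloid-derived suppressor cells are, were sorted from tumors or from blood of tumor-bearing mice. Mice had received local ionizing radiation (IR, 1 dose of 20 Gy) or none, and cells were collected 3 days later. WT mice carried Ythdf2 fl/fl alleles without Cre, and Ythdf2-cKO mice carried Lyz Cre with Ythdf2 fl/fl, so that both genotypes shared the floxed alleles and Cre was driven by a lysozyme gene of myeloid cells. Male and female mice aged 8 to 10 weeks were used in the study, and cells of 5 mice were pooled for each genotype, tissue and treatment. WT cells bore the hashtag antibody B0301 and cKO cells B0302, so that each of the 4 libraries held both genotypes.

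Interferon-induced proteins with tetratricopeptide repeats bind RNA in the cytosol and restrain the translation of viral messages. IFIT1 binds the 5′ end of RNA whose cap lacks the methyl mark of host mRNA, and in human cells IFIT2 and IFIT3 are its binding partners. Type I interferon, which cells make when they sense foreign or misplaced nucleic acid, acts through the receptor chains IFNAR1 and IFNAR2 and the kinases JAK1 and TYK2. The transcription factors they activate bind interferon-stimulated response elements in front of its target genes. The IFIT genes are silent or low in most resting cells and are among the most inducible targets of this pathway.

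The 5 genes lie side by side on chromosome 19 (GRCm38, GENCODE vM21), within 99316 bases. From the centromeric side they are Ifit2 (34550694 to 34576419, plus strand, 3 exons), Ifit3 (34583531 to 34588731, plus strand, 2 exons), Ifit1bl1 (34592891 to 34601956, minus strand, 2 exons), Ifit3b (34607970 to 34613401, plus strand, 2 exons) and Ifit1 (34640871 to 34650009, plus strand, 2 exons). Between Ifit3b and Ifit1 lies Ifit1bl2, a related gene on the minus strand whose annotated start is 128 bases from that of Ifit1. No member overlaps another annotated gene. Ifit3 and Ifit3b are near copies: their longest annotated transcripts were 98.0% identical over 1697 aligned bases, with an identical stretch of 329 bases. In their last 500 bases, nearest to the 3′ end that is read, they were 94.9% identical over 197 aligned bases, with an identical stretch of 45. The division of reads between Ifit3 and Ifit3b is uncertain for that reason.

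The 250 bases before the transcription start of each member are shown because the members moved together in tumors and because the windows differ in the interferon-stimulated response element, the sequence through which the pathway is known to act. They are RefSeq promoter windows of GRCm38.p6, written 5′ to 3′ on the gene's strand. Capitals mark each match to TTTCNNTTTC or, on the other strand, GAAANNGAAA, a core pattern of that element.
Ifit1, chr19:34640639-34640888, plus strand: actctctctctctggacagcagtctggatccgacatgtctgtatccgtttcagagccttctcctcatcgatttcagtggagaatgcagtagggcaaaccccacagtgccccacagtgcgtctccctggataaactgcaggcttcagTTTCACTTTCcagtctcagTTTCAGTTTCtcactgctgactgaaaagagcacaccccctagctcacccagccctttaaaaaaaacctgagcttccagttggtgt
Ifit2, chr19:34550444-34550693, plus strand: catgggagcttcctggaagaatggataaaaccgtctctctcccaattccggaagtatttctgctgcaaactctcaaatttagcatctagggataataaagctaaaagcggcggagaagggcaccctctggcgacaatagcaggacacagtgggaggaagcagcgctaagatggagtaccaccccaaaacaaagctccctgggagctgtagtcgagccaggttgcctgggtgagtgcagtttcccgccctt
Ifit3, chr19:34583279-34583528, plus strand: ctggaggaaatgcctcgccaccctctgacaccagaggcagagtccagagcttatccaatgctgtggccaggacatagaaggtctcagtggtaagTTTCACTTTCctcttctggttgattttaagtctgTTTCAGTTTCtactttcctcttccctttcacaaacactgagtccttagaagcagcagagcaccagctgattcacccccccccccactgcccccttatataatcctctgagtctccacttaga
Ifit3b, chr19:34607707-34607956, plus strand: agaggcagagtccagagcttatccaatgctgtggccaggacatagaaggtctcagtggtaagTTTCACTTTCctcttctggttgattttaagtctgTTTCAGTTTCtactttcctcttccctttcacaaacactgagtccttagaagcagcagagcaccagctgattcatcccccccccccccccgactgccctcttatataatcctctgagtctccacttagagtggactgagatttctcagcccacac
Ifit1bl1, chr19:34601969-34602218, minus strand: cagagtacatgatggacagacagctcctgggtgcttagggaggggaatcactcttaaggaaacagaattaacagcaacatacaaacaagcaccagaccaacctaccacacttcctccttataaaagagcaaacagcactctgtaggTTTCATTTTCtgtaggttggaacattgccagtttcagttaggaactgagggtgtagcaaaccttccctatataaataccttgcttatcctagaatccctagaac
Ifit1, Ifit3 and Ifit3b held 2 matches each, Ifit1bl1 held 1 and Ifit2 held 0 in this window. Ifit2 and Ifit1bl1 each have 2 RefSeq windows, of which 1 is shown. The window of Ifit2 that is not shown held 0 matches, and that of Ifit1bl1 held 1, at 23 bases before its end. Distances were counted to the end of each window, which is the RefSeq start. The matches lay 104 and 85 bases before that of Ifit1 and 156 and 122 before that of Ifit3. They lay 188 and 154 before that of Ifit3b and 104 before that of Ifit1bl1. For these genes the RefSeq start differs from the GENCODE start given above. The Ifit1 window ends at 34640888, inside the gene annotated from 34640871. Both matches of Ifit1 also fall in the window of Ifit1bl2, which reads the same bases from the other strand. The windows of Ifit3 and Ifit3b were 99.1% identical over 218 aligned bases. The pattern was present in 2.98% of all 32851 windows, and at least 2 matches were present in 0.180% of them. Among 31 other interferon-stimulated genes with a window, 13 held it in at least 1 window, where 3.46% of all 27025 genes did. A match to these letters is a description and shows no binding, and 0 matches says only that the letters are not in the window.

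Each library was counted over 32285 genes and held between 51653956 and 87703837 unique molecular identifiers (UMIs), each standing for 1 captured RNA molecule. Assignment by hashtag left between 2130 and 4309 cells in each of the 8 groups, and the gene UMIs of a group summed to between 18352753 and 24779512. Blood cells were shallower, with a median of 2968 to 3442 UMIs per cell in the 4 blood groups against 6042 to 8686 in the 4 tumor groups. A barcode was given a genotype if it had 20 or more hashtag UMIs. It was called WT if B0301 was at least as high as B0302, and cKO if B0302 was at least 4 times B0301. Levels are given as CPM, a gene's share of all gene UMIs of a group, counted per 1000000. Each group is 1 pool in 1 library, so that there is no replicate and no test. The 95% intervals are exact Poisson or binomial ones and cover counting error only, not the spread between mice. In these sums, fewer cells that use a gene and less RNA per cell cannot be told apart.

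3 features of the libraries bear on every comparison. Ythdf2 UMIs went against the cKO label, at 33.4 to 55.5 CPM in the 4 WT groups and 306 to 372 CPM in the 4 cKO groups. Tags at the 3′ end need not lie in the deleted part and cannot check the deletion. Why the level was higher with the cKO label was not tested. Lyz2, the host of a commonly used myeloid Cre, was at 5622 to 14388 CPM in WT and 81.9 to 137 CPM in cKO. Lyz1 went the other way, at 3.99 to 10.9 CPM in WT and 110 to 261 CPM in cKO. The genotypes are therefore written as cells labelled WT or cKO. Nearly all cells of each tumor library also appeared in the gene matrix of the other: of 5205 barcodes with hashtags in the tumor control library, 5044 had at least 500 gene UMIs in the irradiated matrix too, although only 257 had hashtags in both. Tumor cells were placed by the library that held their hashtags, and each tumor comparison was also read from either matrix alone. Barcodes just inside and just outside the genotype limits were also inspected. In the tumor control library the family was at 36.6 CPM where B0302 was 4 to 8 times B0301, at 315 CPM at 2 to 4 times, and at 69.7 CPM where B0302 was above B0301 by less than 2 times. It was at 120 CPM over the 430 barcodes on the WT side of the limit in which B0302 reached at least 0.5 times B0301. The level thus did not run in 1 direction across the limits.

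The sorting markers were present but did not define 1 cell type. Ptprc, which encodes CD45, was at 310 to 629 CPM in the tumor groups and 1655 to 1840 CPM in the blood groups, and Itgam, which encodes CD11b, was at 332 to 646 CPM over all 8. Ly6c2, which encodes Ly6C2, was lowest in tumor control cells labelled cKO at 154 CPM, followed by tumor control cells labelled WT at 445 CPM, and lay between 674 and 1451 CPM elsewhere. Ly6g, a neutrophil marker, was at 31.7 to 78.1 CPM in blood and under 0.6 CPM in tumors. Clusters named from fixed marker lists gave macrophage-like cells as the largest class in tumors (45.9% to 56.9% of a group). In blood they gave mostly neutrophil-like cells (64.3% to 68.4%). Clusters that stayed unnamed held 31.1% (control WT), 21.8% (control cKO), 43.7% (IR WT) and 34.7% (IR cKO) of the tumor cells.

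In tumors, all 5 IFIT genes were far higher after IR in cells of both labels. The 5 genes summed to 104 CPM (95% interval 99.7 to 109) in tumor control cells labelled WT, 50.2 CPM (47.4 to 53.2) in tumor control cells labelled cKO, 834 CPM (822 to 847) in irradiated tumor cells labelled WT and 828 CPM (817 to 839) in irradiated tumor cells labelled cKO. In blood the sums were 103 CPM (98.6 to 107) in control cells labelled WT, 74.9 CPM (71.1 to 79.0) in control cells labelled cKO, 180 CPM (174 to 186) after IR with the WT label and 143 CPM (138 to 149) after IR with the cKO label. The order of the groups thus ran from tumor control cKO, blood control cKO and both WT controls, through the irradiated blood, to the irradiated tumors. The WT controls of tumor and blood overlapped in their intervals, as did the 2 irradiated tumor groups. Every other neighbouring pair in that order was apart by more than its counting error.

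**Figure D1:**
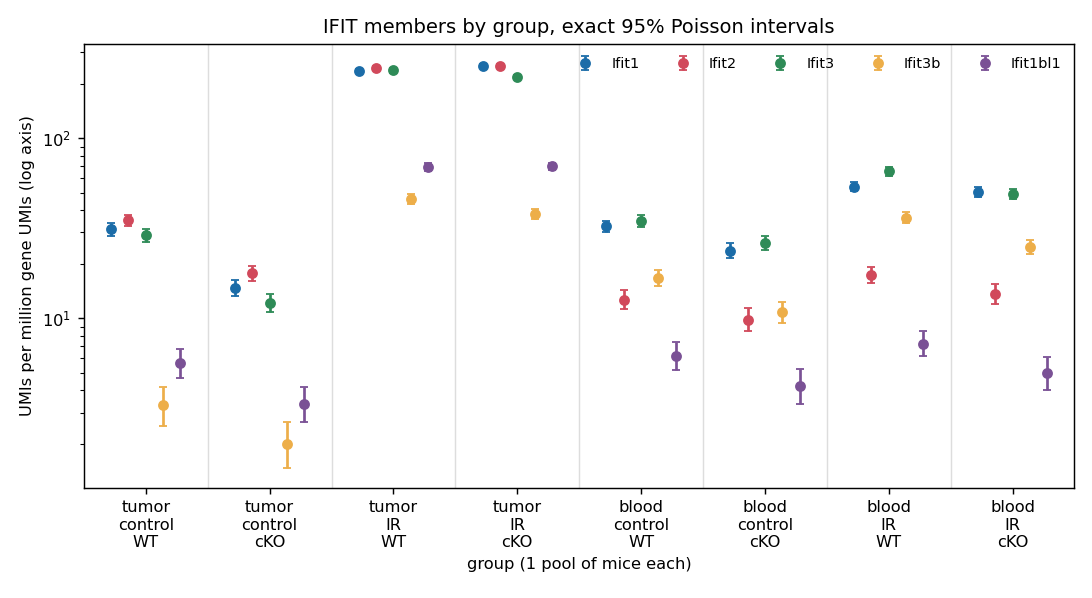
Level of each IFIT gene in each of the 8 groups, in CPM on a log axis, with exact 95% Poisson intervals that cover counting error only. All 5 genes were highest in the 2 irradiated tumor groups, from 38.0 CPM (Ifit3b, labelled cKO) to 252 CPM (Ifit2, labelled cKO).

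Ifit1, the cap sensor of the family, was at 31.2 CPM in tumor control WT, 14.8 in tumor control cKO, 236 in tumor IR WT and 251 in tumor IR cKO. In blood it was at 32.4 CPM in control WT, 23.8 in control cKO, 53.7 in IR WT and 50.1 in IR cKO. Irradiated tumor cells of both labels stood above every other group, and irradiated blood above all 4 control groups. Ifit2, which encodes an RNA-binding member that has been tied to cell death, was at 35.0, 17.9, 245 and 252 CPM in the same 4 tumor groups. In blood it was only at 12.7, 9.86, 17.4 and 13.7 CPM. Ifit2 was thus the member for which the blood groups were all below the tumor control of WT label.

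Ifit3, whose human counterpart strengthens RNA binding by IFIT1, was at 29.0, 12.2, 238 and 218 CPM in tumor control WT, tumor control cKO, tumor IR WT and tumor IR cKO. In blood control WT, control cKO, IR WT and IR cKO it was at 34.8, 26.2, 65.4 and 49.1 CPM. Its near copy Ifit3b was at 3.29, 2.01, 46.0 and 38.0 CPM in the tumor groups and at 16.8, 10.8, 36.1 and 24.96 CPM in the blood groups. Ifit3b was the only member that was higher in both blood controls than in both tumor controls with intervals apart. Ifit1bl1, a gene of the mouse related to Ifit1, was at 5.63, 3.36, 69.1 and 70.0 CPM in the tumor groups and at 6.21, 4.21, 7.25 and 4.96 CPM in the blood groups. UMIs count 3′ ends of molecules and not bases, and the annotated 3′ ends of the members differ, so that levels are compared within a gene rather than between members.

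The first comparison asked how IR changed the IFIT genes in tumor cells. In cells labelled WT the family was higher after IR by a log2 ratio of 3.002 (95% interval 2.94 to 3.07), from 2089 to 16940 UMIs. Ifit3b rose by 3.79 (3.44 to 4.19), Ifit1bl1 by 3.60 (3.34 to 3.91), Ifit3 by 3.04 (2.91 to 3.17), Ifit1 by 2.92 (2.80 to 3.04) and Ifit2 by 2.81 (2.70 to 2.93), all as log2 ratios of CPM. A gene was counted as past the limit if its log2 ratio was 1 or more in size with at least 100 UMIs in the 2 groups together. All 5 members passed upward, where 2.57% of the 10145 genes compared did, while 3.26% passed downward and 5.84% in either direction. In the order of all 10145 genes from the highest ratio, Ifit3b was at place 12, Ifit1bl1 at 15, Ifit3 at 19, Ifit1 at 23 and Ifit2 at 26.

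In tumor cells labelled cKO the log2 ratio of the family was 4.04 (3.96 to 4.13), from 1197 to 20515 UMIs. Ifit1bl1 was higher by 4.36 (4.06 to 4.72), Ifit3b by 4.21 (3.82 to 4.69), Ifit3 by 4.15 (3.99 to 4.33), Ifit1 by 4.08 (3.93 to 4.24) and Ifit2 by 3.81 (3.67 to 3.96). All 5 members passed upward, against 5.19% of 10687 genes upward, 16.8% downward and 22.0% in either direction. Ifit1bl1, Ifit3b, Ifit3, Ifit1 and Ifit2 stood at places 2, 3, 4, 6 and 11 from the highest ratio. The controls labelled cKO were lower than those labelled WT, while the irradiated levels of both labels were close to each other. Read from the irradiated matrix alone, the family's ratio was 2.94 with the WT label and 3.68 with the cKO label. Scaling by TMM factors, which moved the median of all genes from −0.13 to 0.01 (WT) and from −0.18 to 0.01 (cKO), gave 3.14 and 4.23 for the family. It also turned the count of genes past the limit from 261 higher and 331 lower to 342 and 204 (WT) and from 555 and 1792 to 822 and 1422 (cKO).

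Cell types changed beside the IFIT genes in tumors. The 13 neutrophil markers summed to 244 and 279 CPM in the tumor controls labelled WT and cKO and to 2050 and 1302 CPM after IR, with the granule genes Camp at 0 in all 4 groups and Ngp at 0 in 2. The 8 fibroblast markers summed to 736 and 1237 CPM in the controls and to 426 and 215 CPM after IR, and the 12 macrophage markers to 7540 and 10184 CPM in the controls and to 8162 and 10312 CPM after IR. With the mix of cell classes held fixed, the family was higher after IR by 2.86 (WT) and 3.77 (cKO). All unnamed clusters counted as 1 class there, so that shifts between clusters inside a class were not held fixed. Unnamed cluster 12, described below, went from 15 to 324 cells (WT) and from 29 to 244 (cKO). Macrophage-like cluster 4 went from 273 to 858 and from 127 to 1223 cells.

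In blood the changes with IR were in the same direction and smaller. The family was higher by a log2 ratio of 0.81 (0.73 to 0.88) in cells labelled WT and 0.93 (0.84 to 1.03) in cells labelled cKO. In WT, Ifit3b was higher by 1.10 (0.92 to 1.29), Ifit3 by 0.91 (0.78 to 1.04), Ifit1 by 0.73 (0.59 to 0.87) and Ifit2 by 0.45 (0.22 to 0.68), while Ifit1bl1 gave 0.22 with an interval across 0 (−0.12 to 0.57). In cKO, Ifit3b was higher by 1.202 (0.96 to 1.45), Ifit1 by 1.07 (0.91 to 1.24), Ifit3 by 0.90 (0.75 to 1.07) and Ifit2 by 0.48 (0.20 to 0.76), and Ifit1bl1 gave 0.23 (−0.22 to 0.69). Ifit3b was past the limit in WT, where 0.349% of 9740 genes passed upward, 0.965% downward and 1.31% in either direction. Ifit3b and Ifit1 were past it in cKO, where 0.402% of 9461 genes passed upward and 1.41% in either direction. Ifit1bl1 thus had the smallest ratio of the 5 in blood of both labels and 1 of the 2 highest in tumors, whereas Ifit2 had the smallest ratio in tumors of both labels and the next to smallest in blood.

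**Figure D2:**
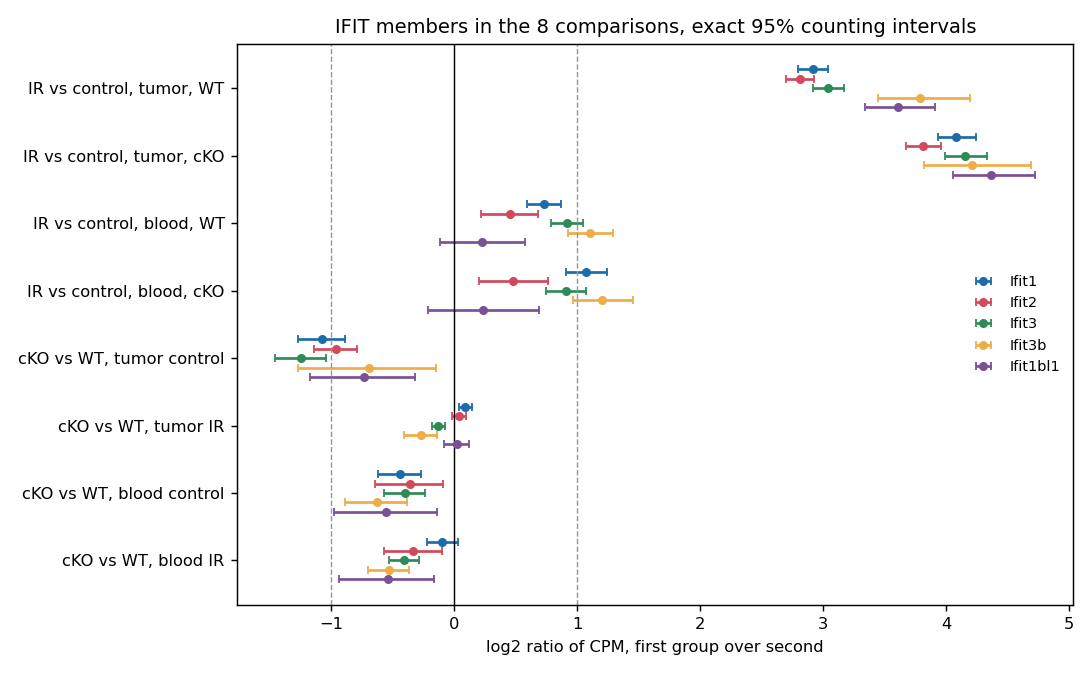
Log2 ratio of CPM for each IFIT gene in the 4 comparisons of IR with control and the 4 comparisons of cKO with WT, with exact 95% conditional binomial intervals that cover counting error only. The tumor ratios of IR to control lie between 2.81 and 4.36, the blood ratios between 0.22 and 1.202, and the cKO to WT ratios between −1.24 and 0.09.

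The second comparison asked whether the genotype label moved the IFIT genes. In tumor controls all 5 members were lower in cells labelled cKO, and the family by a log2 ratio of −1.05 (−1.15 to −0.95). Ifit3 was at −1.24 (−1.46 to −1.04), Ifit1 at −1.08 (−1.27 to −0.89), Ifit2 at −0.97 (−1.15 to −0.79), Ifit1bl1 at −0.74 (−1.18 to −0.32) and Ifit3b at −0.69 (−1.27 to −0.15). Read from the irradiated matrix, the direction of Ifit3b turned, to 0.30 (−0.50 to 1.14) on 34 UMIs with the cKO label and 23 with the WT label. Ifit3 and Ifit1 were past the limit downward, where 1.30% of 10679 genes were, with 3.31% upward and 4.62% in either direction. With TMM factors Ifit2 passed as well, and 253 genes were higher and 180 lower past the limit in place of 354 and 139. After IR the difference between labels was small: the family gave −0.01 (−0.04 to 0.02), with members between −0.27 (Ifit3b, −0.41 to −0.14) and 0.09 (Ifit1, 0.03 to 0.14). No member passed the limit there, while 0.199% of 10033 genes passed upward, 0.837% downward and 1.04% in either direction.

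In blood controls the family was lower with the cKO label by −0.46 (−0.56 to −0.36), with members from −0.63 (Ifit3b, −0.89 to −0.38) to −0.36 (Ifit2, −0.64 to −0.09). In irradiated blood it was lower by −0.33 (−0.40 to −0.26), with members from −0.54 (Ifit1bl1, −0.94 to −0.17) to −0.10 (Ifit1, −0.23 to 0.03). None of the 5 was past the limit in either, where of 9610 genes in control blood 0.697% were past it upward, 1.57% downward and 2.27% in either direction, and of 9612 in irradiated blood 0.146%, 0.510% and 0.655%. Genotype and hashtag antibody were the same split in every library, so that the 2 cannot be told apart.

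A few cells held much of the IFIT total in tumor controls. Within macrophage-like cells, the 10 cells with the most IFIT UMIs held 30.8% of the class total in control WT and 63.2% in control cKO, against 9.38% and 9.12% after IR. Without those 10 cells in each group the class was at 86.4 CPM in control WT and 22.6 CPM in control cKO. This removal was chosen after the values had been seen, and is given below for the classes it moved. A fixed 10 cells is a larger part of a small group than of a large one, so that small groups can fall more. Tumor control barcodes that also carried hashtags in the irradiated library had higher IFIT levels, at 275 CPM over 51 cells labelled WT and 265 CPM over 74 cells labelled cKO, where cells without a shared barcode were at 99.9 and 44.5 CPM. Leaving those cells out gave a log2 ratio of −1.17 between labels. Reading all tumor cells from the irradiated matrix gave −0.75.

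The level in a group can come from more cells with the transcript or from more molecules in each. To compare groups of different depth, each cell was thinned to 1500 UMIs. A member of the family was then seen in 7.45% of tumor control cells labelled WT and 4.10% of those labelled cKO, and in 38.4% and 34.5% after IR. In blood it was seen in 6.58% (WT) and 6.26% (cKO) of control cells and in 13.4% of cells of both labels after IR. Unthinned, the 8 shares in the same order were 14.8%, 10.5%, 52.4%, 49.4%, 12.7%, 13.02%, 24.1% and 23.8%. Among thinned cells with at least 1 UMI, the mean was 2.50 (WT) and 2.31 (cKO) UMIs in tumor controls and 4.14 and 4.16 after IR. In blood the mean went from 2.72 to 3.07 with the WT label and from 2.21 to 2.40 with the cKO label. In tumors both the share of cells and the UMIs per positive cell were thus higher after IR, and in blood chiefly the share.

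**Figure D3:**
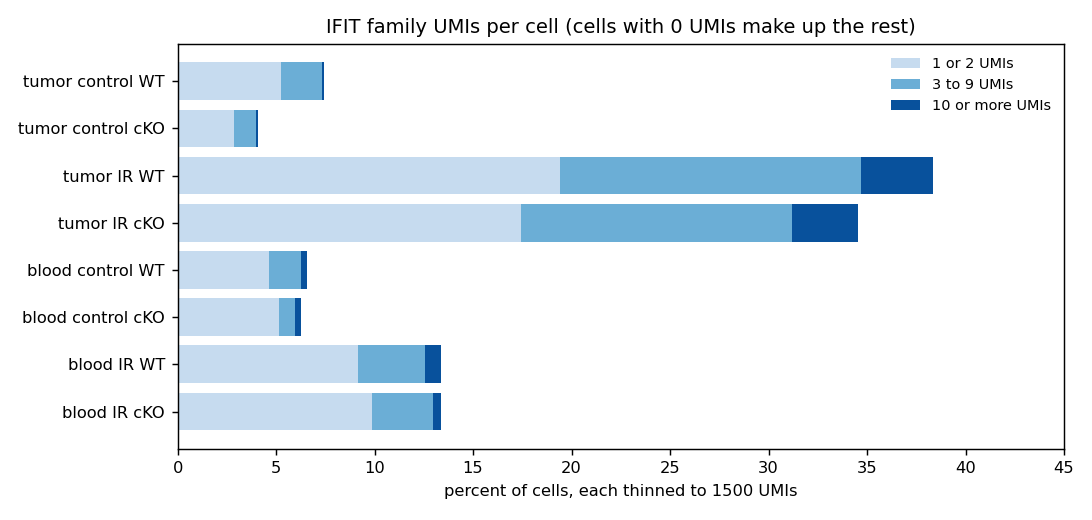
Share of cells with 1 or 2, 3 to 9, and 10 or more IFIT family UMIs in each group, after each cell was thinned to 1500 UMIs. The bars reach 38.4% and 34.5% in the irradiated tumor groups and stay under 8% in the 4 control groups.

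Free RNA gives UMIs in cells that do not use a gene, and barcodes below the cell range held IFIT UMIs at 214, 564, 84.7 and 203 CPM in the tumor control, tumor IR, blood control and blood IR libraries. NK cell-like cells, which had the lowest level of the named tumor classes with 20 or more cells in a group, were positive in 2.59% (WT) of thinned tumor control cells and in 0 of 51 labelled cKO, and in 8.51% and 8.82% of thinned cells after IR, at median depths of 2294 to 2674 UMIs. Before thinning, 0 of the 54 control cells labelled cKO had a UMI, which allows up to 5.56% of cells with a UMI and sets no limit on the share of cells that use the genes. These cells can respond to interferon themselves, so that their shares are no blank. The shares in irradiated macrophage-like cells, 35.8% (WT) and 33.6% (cKO) at median depths of 7045 and 7039 UMIs, were above them. Control macrophage-like shares were 8.53% (WT) and 4.14% (cKO), above the NK cell-like control shares of 2.59% and 0 of 51. Against the irradiated NK cell-like shares, which come from another library, they were near (WT) or lower (cKO). The part of free RNA in the control levels was not tested.

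The transcripts of the members tended to be in the same cells. In thinned cells of the irradiated tumor labelled WT, 53.2% of the 607 cells with Ifit1 also had Ifit2, compared with 13.9% of the 2245 cells without Ifit1, and 56.7% had Ifit3, compared with 11.2%. In irradiated blood labelled WT, 43.6% of the 243 cells with Ifit1 also had Ifit3 against 4.5% of those without it, and 15.6% had Ifit2 against 0.9%. The tenth of cells with the most IFIT UMIs held 63.0% (WT) and 66.5% (cKO) of them in irradiated tumors and 91.8% and 89.6% in irradiated blood. This share depends on how many cells are positive at all. Of the thinned cells 61.6% (WT) and 65.5% (cKO) in irradiated tumors and 86.6% with either label in irradiated blood had 0 IFIT UMIs. The tissues are therefore not compared by it. Single cells of irradiated tumors reached 40 (WT) and 53 (cKO) of their 1500 UMIs.

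Next, the classes of cells were compared, using clusters built without the IFIT genes, the other interferon genes, Ythdf2, Lyz1 and Lyz2. Macrophage-like cells of tumors, which express the complement genes C1qa, C1qb and C1qc, were at 124 CPM (control WT), 60.8 (control cKO), 762 (IR WT) and 770 (IR cKO) for the family. After IR the class was higher by a log2 ratio of 2.62 (2.54 to 2.71) with the WT label and 3.66 (3.56 to 3.77) with the cKO label, and the ratio of cKO to WT was −1.02 (−1.15 to −0.90) in controls and 0.02 (−0.02 to 0.06) after IR. The class was made of 3 clusters that differed among themselves. Cluster 3, led by major histocompatibility class II genes and Cxcl9, was at 85.7 (control WT), 25.4 (control cKO), 345 (IR WT) and 369 CPM (IR cKO). Cluster 4, led by Mmp12, Mmp13 and Arg1, was at 350 and 366 CPM in the controls and 1100 and 1123 CPM after IR, and its log2 ratio between labels in controls was 0.07 (−0.13 to 0.26). That closeness rested on few cells, since 10 of the 127 control cells labelled cKO held 94.6% of the UMIs. With the WT label 10 of 273 control cells held 56.1%. Without the 10 highest cells of each group the control levels were 160 CPM (WT) and 21.9 CPM (cKO), although the 10 were a larger part of the cKO group. Cluster 11, led by Folr2, Mrc1 and Ccl8, was at 56.0 and 52.0 CPM in the controls, with a ratio between labels of −0.10 (−0.42 to 0.22), and at 94.97 CPM over 33 irradiated cells labelled cKO. In its controls 10 cells held 91.3% (WT) and 87.9% (cKO) of the UMIs, and the rest was at 5.27 and 6.47 CPM. Cluster 3 had a ratio between labels of −1.75 (−2.01 to −1.50) in controls, and without the 10 highest cells its control levels were 45.5 CPM (WT) and 6.12 CPM (cKO). Their shares of cells also differed between labels, since of the control cells with the WT label 273 were in cluster 4 and 167 in cluster 11, and of those with the cKO label 127 and 467.

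2 tumor clusters without a name were as high or higher. Cluster 5, whose leading genes were Dmkn, Cxcl10, Gbp5 and Socs1, was at 124 and 51.3 CPM in the controls labelled WT and cKO and at 1026 and 1069 CPM after IR. Cluster 5 gave 29.5% (WT) and 24.8% (cKO) of the family's UMIs in the irradiated tumor groups. In its tumor cells Ly6c2, Ccr2 and C1qa were at 1301, 425 and 27.4 CPM. In macrophage-like cluster 4 the same genes were at 1614, 341 and 742 CPM. Without its 10 highest cells in each group it was at 48.8 and 18.7 CPM in the controls and at 903 and 931 CPM after IR. Cluster 12, led by the chemokine genes Ccl3 and Ccl4 and by G0s2, with the neutrophil receptor gene Cxcr2 also raised, held 324 (WT) and 244 (cKO) irradiated tumor cells but only 29 control cells labelled cKO. In its tumor cells the neutrophil markers S100a8, S100a9 and Cxcr2 were at 16702, 28525 and 761 CPM. Other tumor clusters of 50 or more cells had at most 134, 160 and 4.57 CPM. Naming compared each cluster with all other cells, blood neutrophil-like ones included, and 2 neutrophil markers were raised where 3 were needed. Cluster 12 had the highest level of any group of 20 or more cells, at 3066 CPM (2933 to 3204) with the WT label and 3583 CPM (3415 to 3758) with the cKO label, and a thinned share of positive cells of 60.6% and 61.1%. Its median depth was 1934.5 (WT) and 1862.5 UMIs (cKO) after IR, and it gave 11.8% and 8.3% of the family's UMIs in the 2 irradiated groups. All unnamed clusters together gave 43.0% (WT) and 34.6% (cKO) of the family's UMIs in irradiated tumors. Without the unnamed clusters the ratio of IR to control was 2.75 (WT) and 3.83 (cKO).

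Dendritic cell-like cells of tumors, which present antigen, were at 120 and 63.4 CPM in the controls and at 851 (IR WT) and 632 CPM (IR cKO), with a ratio between labels of −0.43 (−0.55 to −0.30) after IR. Of the 51 UMIs in control cells labelled cKO, 38 lay in 1 cell. The class pooled 2 clusters of unlike level. Cluster 8 was at 982 (WT) and 812 CPM (cKO) after IR, a ratio between labels of −0.27 (−0.40 to −0.15), and cluster 15 was at 70.6 CPM over 27 cells labelled WT and 150 CPM over 73 cells labelled cKO. Fibroblast-like cells, which are outside the sorted phenotype, were at 29.8 CPM in both controls and at 151 (WT) and 252 CPM (cKO) after IR. Without the 10 highest cells they were at 4.55 (WT) and 8.74 CPM (cKO) in the controls and at 30.6 CPM after IR with the WT label. NK cell-like cells were the lowest of the named classes, at 7.21 CPM over 120 control cells labelled WT, 0 of 54 cells labelled cKO, and 87.8 and 63.1 CPM after IR. IFIT levels were thus higher after IR in every tumor class with at least 20 cells in each of its groups, NK cell-like cells resting on 3 control UMIs.

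In blood, neutrophil-like cells were at 143 (control WT), 98.2 (control cKO), 357 (IR WT) and 281 CPM (IR cKO). Their ratio of IR to control was 1.31 (1.22 to 1.42) with the WT label and 1.52 (1.39 to 1.65) with the cKO label. Cluster 1 of this class, led by Stfa2l1 and Retnlg, was at 106 and 109 CPM in the controls of both labels and at 353 and 297 CPM after IR. Cluster 0, led by Slc40a1 and Csf3r, was at 167 and 190 CPM in the controls and 383 and 286 CPM after IR. Cluster 10, in which the granule gene Ngp and Ly6g were raised, held 532 control cells labelled cKO and only 40 labelled WT, and was at 37.9 CPM (cKO) and 140 CPM (WT). In the 2 large clusters the control difference between labels was 0.18 (−0.01 to 0.37) and 0.03 (−0.20 to 0.27), and in cluster 10 it was −1.86 (−2.56 to −1.16). The WT value of cluster 10 was 24 UMIs over 40 cells, of which 12 were in 1 cell and all 24 in 10 cells. Without the 10 highest cells the controls of cluster 0 were at 117 (WT) and 63.2 CPM (cKO), and those of cluster 1 at 58.2 and 62.5 CPM.

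Monocytes of blood did not move as 1 class. Classical monocyte-like cells, which express Ly6c2 and Ccr2, were at 104 (control WT), 36.5 (control cKO), 64.3 (IR WT) and 68.9 CPM (IR cKO). The family was lower after IR in cells labelled WT (−0.69, −0.85 to −0.54) and higher in cells labelled cKO (0.92, 0.71 to 1.14). In control WT, 10 cells held 46.8% of the class total, and without the 10 highest cells of each group the same 4 levels were 56.2, 24.9, 43.9 and 46.4 CPM. The order of the groups was kept, at smaller distances. The thinned share of positive cells was 6.6%, 5.4%, 7.2% and 7.9% in the same order, so that with the WT label the share went against the CPM and no order is read from it. Nonclassical monocyte-like cells, marked by Ace, Ear2 and Treml4, were at 47.6 (control WT), 105 (control cKO), 135 (IR WT) and 95.8 CPM (IR cKO). Their thinned shares were 4.9% and 7.7% in the controls and 16.4% and 16.8% after IR. With the cKO label share and CPM went opposite ways, so that no order is read from it. Without the 10 highest cells of each group the 4 levels were 21.2, 47.4, 106 and 49.2 CPM, and the difference with the cKO label changed sign. NK cell-like cells of blood were at 14.3 to 38.7 CPM.

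**Figure D4:**
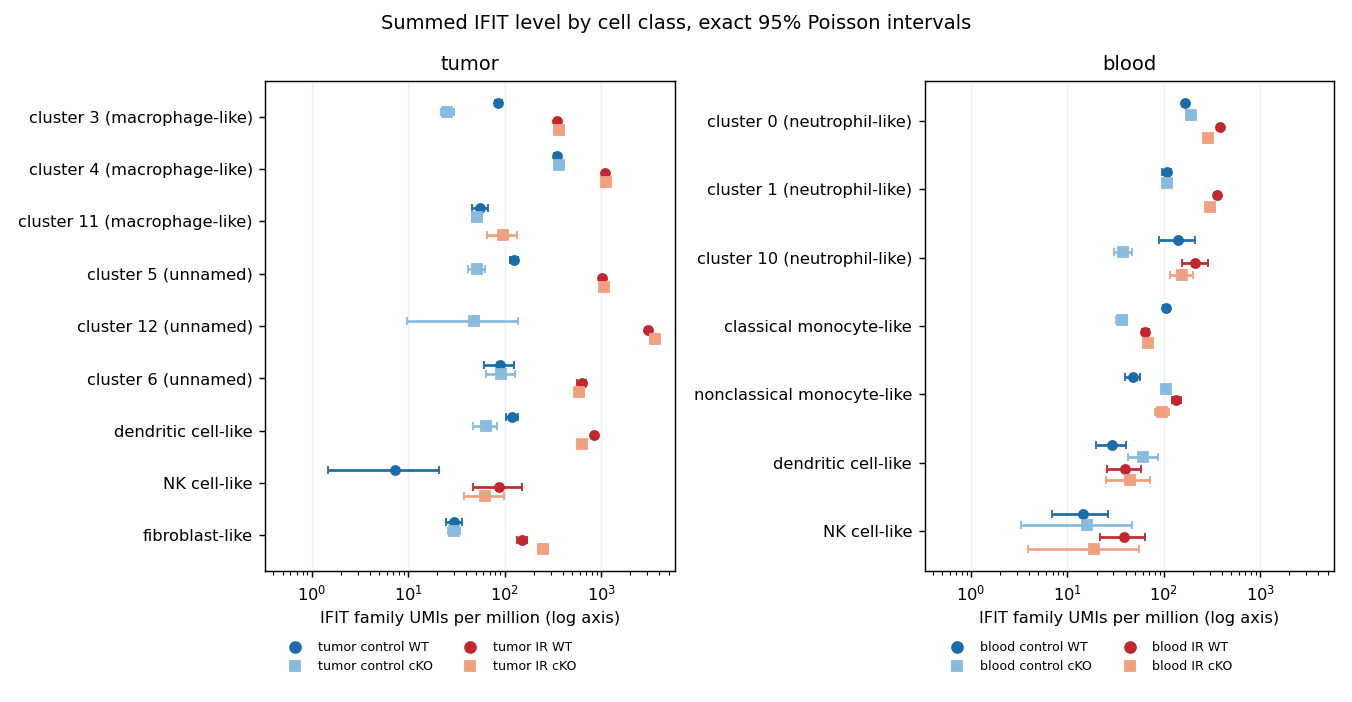
Summed IFIT level in each cluster or class of tumor (left) and blood (right), in CPM on a log axis, with exact 95% Poisson intervals. Groups with fewer than 20 cells and the NK cell-like tumor control cells labelled cKO, which had 0 UMIs, are not drawn. Irradiated tumor cluster 12 is highest at 3066 and 3583 CPM, and in each group drawn the NK cell-like cells are the lowest of the rows shown.

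The share of each member in the family's UMIs differed between tissues and classes. In tumors Ifit1 gave 29.4%, Ifit2 30.3%, Ifit3 27.3%, Ifit3b 4.9% and Ifit1bl1 8.2%. In blood Ifit1 gave 31.8%, Ifit2 10.7%, Ifit3 35.1%, Ifit3b 17.8% and Ifit1bl1 4.5%. Macrophage-like cells came almost only from tumors and neutrophil-like cells almost only from blood, so that tissue and class cannot be told apart there. In neutrophil-like cells of blood Ifit2 gave 5.6%, Ifit3b 23.5% and Ifit1bl1 2.0%, and in macrophage-like cells of tumors Ifit2 gave 31.1%, Ifit3b 3.5% and Ifit1bl1 10.5%. Classical monocyte-like cells of blood lay between them for Ifit2 (19.4%) and Ifit3b (7.6%) and were near the macrophage-like cells for Ifit1bl1 (9.9%). Tumor cluster 12 stood nearer the blood neutrophil-like cells than the other tumor clusters, with 14.0% Ifit2, 13.7% Ifit3b and 0.5% Ifit1bl1. Fibroblast-like cells had 43.6% Ifit3 and 0.4% Ifit1bl1. Ifit1, by contrast, gave between 23.9% and 39.2% in all the classes named here.

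**Figure D5:**
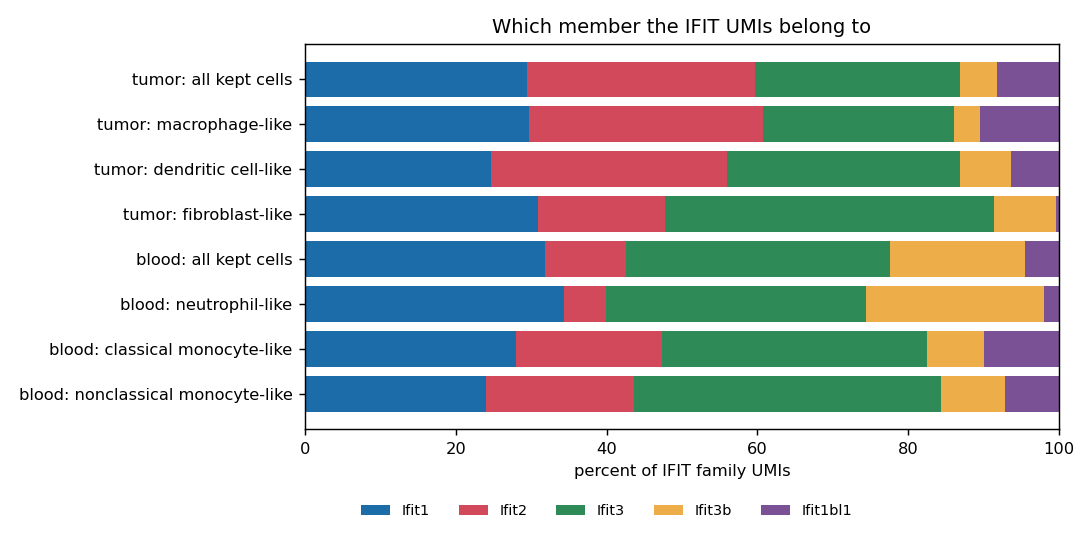
Share of each IFIT gene in the family's UMIs, in percent, for all kept cells of each tissue and for the named classes with the most IFIT UMIs, all groups of a tissue summed. The unnamed clusters have no bar of their own. Ifit2 and Ifit1bl1 take 31.1% and 10.5% in tumor macrophage-like cells and 5.6% and 2.0% in blood neutrophil-like cells, where Ifit3b takes 23.5%.

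The rest of the pathway was read from lists of its parts. Of 38 other type I interferon-stimulated genes in the matrices, 37 were past the limit upward after IR in tumor cells labelled WT (median log2 ratio 1.81, all genes −0.13) and 37 in those labelled cKO (2.55, all genes −0.18). Isg15, a ubiquitin-like modifier, went from 403 to 2129 CPM (log2 ratio 2.40) with the WT label and from 252 to 2165 CPM (3.102) with the cKO label. Ifi27l2a gave 1.68 and 2.65, Bst2, which tethers virus particles, 1.40 and 1.72, and Cxcl10, a chemokine, 1.25 and 0.95. In blood 0 of 37 measured were past the limit in either label. There 36 of 37 had a ratio above 0 in each label (medians 0.36 and 0.37, all genes 0.03 and 0.07). The share of all genes above 0 was not counted. In tumor controls 9 of 38 were past the limit downward with the cKO label (median −0.76, all genes 0.11), and after IR 0 were. Of all genes compared, 2.57% (WT) and 5.19% (cKO) were past it upward after IR in tumors. Between labels in tumor controls 1.30% of all genes were past it downward.

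Upstream parts of the pathway moved less than its targets. Of 11 kinases and transcription factors, 2 (WT) and 5 (cKO) were past the limit upward after IR in tumors and 0 in blood. Of all genes compared in tumors, 2.57% (WT) and 5.19% (cKO) were past it upward. Irf7, a transcription factor that is itself a target, had the highest ratio of that list with both labels. Irf7 went from 113 to 566 CPM (2.33) with the WT label and from 50.9 to 505 CPM (3.31) with the cKO label. The lowest ratios of the list were −0.02 (WT) and −0.13 (cKO), and its medians were 0.46 and 0.84. Of the receptor genes 0 were past the limit in any of the 8 comparisons, with Ifnar2 between 112 and 160 CPM in all groups. Of 6 feedback inhibitors measured in tumors, 2 (WT) and 3 (cKO) were past it upward after IR, beside the same shares of all genes. Usp18, which blocks signalling at IFNAR2, had the highest ratio of these 6. Usp18 went from 17.4 to 107 CPM (2.61) and from 9.07 to 103 CPM (3.50), and Socs1 gave 0.67 and 1.17. The lowest ratios of the 6 were 0.11 (WT) and −0.24 (cKO), and their medians were 0.49 and 0.96.

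Interferon transcripts themselves were sparse. Of 21 ligand genes at most 2 had the 100 UMIs needed in any comparison. Ifnb1 had 174 UMIs over the 8 groups and in tumor cells labelled cKO went from 4.1 to 1.8 CPM after IR. Ifng had 865 UMIs, and went from 14.5 to 9.4 CPM with the WT label and from 1.5 to 6.1 CPM with the cKO label. Most targets known for interferon-gamma were higher after IR in tumors: 7 of 9 with the WT label (median log2 ratio 0.81, all genes −0.13). With the cKO label 8 of 9 were higher (median 1.17, all genes −0.18). In tumor cells labelled WT, 1 was past the limit upward and 1 downward, namely Cd274 (1.02), which encodes PD-L1, and the chemokine Cxcl9 (−1.24). In tumor cells labelled cKO 6 of 9 were past it upward. Of all genes compared in tumors, 2.57% (WT) and 5.19% (cKO) were past it upward and 3.26% and 16.8% downward. In blood cells labelled WT, Cxcl9 (2.31, from 1.1 to 5.9 CPM) and Gbp2 (1.04) were past it upward. In blood cells labelled cKO Cxcl9 went the other way and was past it downward, from 8.37 to 0.49 CPM (−3.95, −5.25 to −3.13).

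The genes with a pattern most like the family were also members of the interferon response. Over 37 sums of a group and a class with 50 or more cells, Pearson's r of log2 CPM with the summed family was 0.91 for Isg15, 0.89 for Rtp4, 0.88 for Rsad2, 0.81 for Trim25 and 0.80 for each of Igtp, Irf7 and Oasl1, which were among the 8 highest genes outside the family in a ranking of 8454 genes that included the members. The members themselves, which are part of the sum, had 0.96 (Ifit1), 0.94 (Ifit3), 0.84 (Ifit2), 0.83 (Ifit3b) and 0.70 (Ifit1bl1). Between members r was highest for Ifit1 with Ifit3 (0.92) and lowest for Ifit2 with Ifit3b (0.61), and Ifit1bl1 was closest to Ifit2 (0.84). These sums share libraries, depth and classes and are no independent samples.

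Of the genes beside the members on chromosome 19, Ifit1bl2 was higher after IR as the members were, while Ch25h, Lipa and Pank1 were not higher to a like degree in tumors. Ifit1bl2, which starts next to Ifit1 and shares its promoter bases, was at 0.30 CPM in tumor control WT, 0 in tumor control cKO, 3.05 in tumor IR WT and 2.95 in tumor IR cKO, and at 10.1, 11.1, 14.0 and 17.0 CPM in blood control WT, control cKO, IR WT and IR cKO. In tumors it went from 6 to 62 UMIs with the WT label (3.15, 2.15 to 4.85) and from 0 to 73 UMIs with the cKO label, and in blood its log2 ratios of IR to control were 0.48 (0.22 to 0.74) and 0.61 (0.36 to 0.88). It was the one gene of the cluster that was higher in all 4 blood groups than in all 4 tumor groups. Neutrophil-like cells held 96.4% of its UMIs in blood (34.1 CPM), and cluster 12 held 75.2% of those in tumors (87.2 CPM), while macrophage-like cells of tumors were at 0.38 CPM over 5897 cells. Its transcript of 3367 bases is 91.6% identical to that of Ifit1bl1 over 2155 aligned bases. Near the 3′ end it is 75.4% identical over 357 aligned bases, where the longest identical stretch was 8 bases. Ch25h, which makes 25-hydroxycholesterol, was lower after IR in tumors, by −0.95 with the WT label and −1.57 with the cKO label, had 0 UMIs in blood, and had 60.5% of its tumor UMIs in macrophage-like cluster 11. Lipa, the lysosomal acid lipase gene next to Ifit2, gave ratios of IR to control between −0.09 and 0.28 in the 4 comparisons, and Pank1 fell by 1.68 and 2.09 on the log2 scale in tumors.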

How the data were processed

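The deposited matrices held counts of UMIs per gene and per hashtag for every barcode of 4 libraries (10x Genomics 3′ chemistry), not normalized. Per the labels and the submitters' processing notes, the authors made these counts with Cell Ranger 6.0.1 on mm10 and used Seurat 4.0.6, whereas a file header names version 4 of the Cell Ranger output. The members, lists and cell type markers were chosen with earlier results of these data known. Here, barcodes above the order-of-magnitude threshold of each library, or differing from its ambient profile, were kept with at least 500 UMIs, 200 genes and at most 25% mitochondrial UMIs. The hashtag rule was then applied, and the 6% of barcodes with the highest Scrublet score were removed, since its own threshold marked at most 2 barcodes in a library. Barcodes between the labels (272 to 340 in a library) were left out. Of a total of 87703837, 81601307, 51731085 and 51653956 gene UMIs in the tumor control, tumor IR, blood control and blood IR libraries, the kept cells were summed per library and genotype label. Levels are CPM with exact Poisson intervals, and ratios have 1 UMI, scaled to depth, added and an exact conditional binomial interval. With 1 pool per group there is no test. Cells were clustered with Seurat 5.3.0 in R 4.3.3 (1956 of the 2000 most variable genes, 40 components, resolution 0.8), leaving out the members, the interferon lists, Ythdf2, Lyz1 and Lyz2. A cluster was named X-like from at least 3 raised markers. The text names all members, at most 4 genes with the most UMIs of each list, the 8 genes most like the family and the genes within 200 kb. Sums, intervals and figures were made in Python 3.11.15 with numpy 2.4.6, scipy 1.17.1, scanpy 1.11.5 and matplotlib 3.10.9, and TMM factors in edgeR 4.0.16. The ratio script was tested on simulated data. Alternatives for calling cells, labels, doublets, scaling, added UMIs, matrix, class mix, thinning, clustering and the UMI minimum were tried. Amino acid sequences were not used here. The values of 1 gene that the naming rule selected are not reported here.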

Additional observations from a re-analysis of the deposited data

Results flagged for a closer look

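Some differences turned their sign between groups in the same contrast, and none of these differences was tested, as each group is 1 pool. In classical monocyte-like cells of blood, every member was lower after IR with the WT label and higher with the cKO label. The family's log2 ratios were −0.69 (WT) and 0.92 (cKO), a difference of −1.61. For Ifit1 they were −0.35 and 0.92 (difference −1.27), for Ifit2 −0.40 and 1.21 (−1.61), for Ifit3 −1.03 and 0.68 (−1.71), for Ifit3b −0.68 and 1.18 (−1.87) and for Ifit1bl1 −0.95 and 0.92 (−1.87). These ratios rest on a WT control class in which 10 of 741 cells held 46.8% of the family's UMIs.

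Ifit1 was lower with the cKO label in tumor controls (−1.08) and slightly higher after IR (0.09), a difference of −1.16 over all kept cells. In macrophage-like cells the same ratios were −1.09 and 0.15, a difference of −1.24. In nonclassical monocyte-like cells of blood the family was higher with the cKO label in controls (1.14) and lower after IR (−0.49), a difference of 1.64, and Ifit3 gave 1.05 and −0.63, a difference of 1.68.

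Barcodes that the hashtag rule put between the labels held IFIT UMIs above both labelled groups in 3 libraries. They were at 217 CPM in the tumor control library (labelled groups 104 and 50.2), 148 CPM in the blood control library (103 and 74.9) and 277 CPM in the blood IR library (180 and 143). In the tumor control library, 113 of the 297 such barcodes also carried hashtags in the irradiated library and were at 785 CPM, and the other 184 were at 68.9 CPM.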

How the results depend on the processing

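No replicate could be left out and no test was run, since each group is 1 pool, and counting intervals are no measure of the spread between mice. No paired analysis was possible because each group has 1 sample and the result comes from no test. The family's log2 ratios kept their sign in every alternative run, except between labels in irradiated tumors, where they ran from −0.081 to 0.064 around a value of −0.01. IR to control gave 2.75 to 3.14 (tumor WT), 3.68 to 4.23 (tumor cKO), 0.78 to 0.83 (blood WT) and 0.86 to 1.10 (blood cKO). The cKO to WT ratio gave −1.17 to −0.75 in tumor controls, −0.54 to −0.44 in blood controls and −0.37 to −0.26 in irradiated blood.

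The tumor WT ratio moved to 3.08 with a margin of 4 on both hashtags, 2.91 with the order-of-magnitude threshold alone, 3.08 without Scrublet removal, 3.14 with TMM factors and 2.86 with the class mix held fixed. The tumor cKO ratio moved to 3.94 with HTODemux singlets, 4.23 with TMM factors, 3.68 when read from the irradiated matrix and 3.77 with the class mix held fixed, which also moved the blood cKO ratio to 1.10 and the irradiated blood ratio of labels to −0.26. In tumor controls the ratio of labels moved to −0.92 without Scrublet removal, −0.75 from the irradiated matrix and −0.92 with the class mix held fixed, and in irradiated tumors to −0.081 with HTODemux singlets. 2 alternatives were chosen after seeing the data. Without barcodes that carry hashtags in both libraries of a tissue, tumor cKO gave 4.22 and the tumor control labels −1.17. Without the unnamed clusters, tumor WT gave 2.75, tumor cKO 3.83 and the irradiated tumor labels 0.064. The causes were not tested.

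All 5 members were past the limit in both tumor comparisons of IR in every alternative, and 1 to 3 were past it between labels in tumor controls, where Ifit3b reached 0.30 from the irradiated matrix. Unthinned shares of positive cells were 14.8%, 10.5%, 52.4% and 49.4% in tumor control WT, control cKO, IR WT and IR cKO and 12.7%, 13.02%, 24.1% and 23.8% in blood. With a minimum of 20 UMIs instead of 100, genes past the limit rose from 592 to 1162 (tumor WT), 128 to 413 (blood WT), 133 to 405 (blood cKO), 493 to 953 (tumor control labels), 104 to 384 (irradiated tumor labels), 218 to 521 (blood control labels) and 63 to 262 (irradiated blood labels). Single values by member, class or group, each counted once for every alternative it was recomputed under, moved beyond their counting interval 105 times and stayed within it 459 times, and 40 of the 105 were shares of cells without thinning. TMM factors changed the share of higher among genes past the limit from 44.1% to 62.6% (tumor WT), 23.6% to 36.6% (tumor cKO) and 71.8% to 58.4% (tumor control labels).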
